A study of Mus musculus with 8 samples.

Results

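Solute carriers are the membrane proteins that move small molecules such as amino acids, sugars, nucleosides and ions across the plasma membrane and the membranes of lysosomes, mitochondria, the endoplasmic reticulum and the Golgi. The 192 genes described here are the protein-coding genes whose GENCODE M21 symbol starts with Slc and a digit and whose mean raw count over 8 RNA-Seq libraries of mouse bone marrow-derived macrophages (BMDMs) was at least 10. The file held 49315 genes, of which 364 were such Slc genes. With 7 carriers left out beforehand (Slc2a1, Slc16a1, Slc16a3, Slc7a11, Slc40a1, Slc11a1 and Slc11a2), 70 of the 364 had no count in any library and 102 had counts below the limit. The mean count over both groups chose the members, so their presence in these cells is a property of the choice and not a result. Just inside the limit were Slc16a11, Slc26a1 and Slc25a31 with mean counts of 10.1, 10.3 and 10.9, and just outside were Slc16a4, Slc39a4 and Slc25a47 with 9.88, 9.75 and 9.38.

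BMDMs are primary macrophages grown in culture, here from C57BL/6 marrow in medium with macrophage colony-stimulating factor (10 ng/ml). The cells of all 8 libraries were transfected by means of a lipid reagent with a gapmeR, an antisense oligonucleotide with which RNase H cleaves the matching RNA. The control group (replicates 2, 5, 6 and 7) received a negative control gapmeR and the knockdown group (replicates 9, 11, 13 and 15) a gapmeR against MAARS, the macrophage lncRNA annotated as Gm14461, at 25 nM by the sample labels. No untransfected cells and no other gapmeR sequence entered this comparison. The labels do not say whether the libraries of a group came from separate mice or cultures, so p-values measure the spread between these libraries, which may be technical.

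Macrophages use solute carriers in several settings that textbooks describe. Digested cells and proteins leave the phagolysosome as amino acids, peptides, nucleosides, haem and metal ions through carriers in its membrane, and proton exchangers set the pH of endosomes. Mitochondrial carriers pass nucleotides, phosphate, amino acids and cofactors across the inner membrane, and the Slc35 family supplies nucleotide sugars to the enzymes that build glycans.

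Between 19287279 and 20567123 counts fell on genes in the control libraries and between 20839671 and 24541205 in the MAARS gapmeR libraries. Levels are given as CPM, counts relative to the library total, after scaling with TMM factors, which correct for differences in library composition and lay between 0.955 and 1.03. MAARS itself was at 13.1 ± 1.36 CPM (SD, n = 4) with control gapmeR and at 6.82 ± 0.844 CPM (SD, n = 4) with MAARS gapmeR. Mitochondrial transcripts took 0.397% to 0.548% of the counts in the control libraries and 0.694% to 0.868% in the MAARS gapmeR libraries, without overlap. All 8 macrophage markers examined passed the filter on low counts, 5 rising and 2 falling with MAARS gapmeR, and had a summed level of 13836 to 17118 CPM in control and 17011 to 20241 CPM in MAARS gapmeR libraries. The 5 of 6 stromal and 7 of 8 neutrophil markers that could be tested were not called, and summed to 458 to 1045 and 101 to 299 CPM in control against 718 to 1233 and 105 to 168 CPM in MAARS gapmeR libraries. Markers of B cells, T cells, dendritic cells, erythroid cells and mast cells summed to at most 2.41 CPM for each list in any library, and the 4 endothelial markers to 46.5 to 78.5 and 75.2 to 138 CPM, with 1 higher and 1 lower of the 3 tested. The part of these shifts in the carrier results was not tested. In these bulk libraries, fewer cells that express a gene and less RNA per cell cannot be told apart.

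Carrier expression shifted in both directions after MAARS knockdown. Of the 192 genes, 189 passed edgeR's filter on low counts, and 91 of them were called, that is, had a false discovery rate (FDR, the p of edgeR's quasi-likelihood test adjusted by Benjamini-Hochberg over all 13051 genes tested) under 0.05. These were 49 genes that rose and 42 that fell, 48.1% of the carriers tested, against 45.4% of all genes tested and 47.4% of the protein-coding genes. The share called was therefore close to the background. By direction, 25.9% of the carriers rose and 22.2% fell, against 21.3% and 24.0% of all genes. When upper-quartile factors replaced the TMM factors, 63 carriers rose and 35 fell, so that 64.3% of the called carriers were higher in place of 53.8%. The share of higher genes among all calls moved likewise, from 47.0% to 60.4% (3622 higher and 2379 lower with upper-quartile factors). The same change of scaling moved the median of all genes by 0.06 on the log2 scale.

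Changes of at least 1.5-fold leaned upward among the carriers, with 18 that rose (9.52% of those tested, against 7.35% of all genes) and 7 that fell (3.7%, against 6.31%). At 2-fold or more, 7 rose (3.7%, against 2.23%) and 3 fell (1.59%, against 3.14%). The 7, and so the 18, include Slc27a3, Slc15a2 and Slc14a1. These passed the filter on low counts only through the MAARS gapmeR group, where they were higher, so the upward lean rests in part on them. In 47 carriers all 4 MAARS gapmeR libraries lay above all 4 controls (24.9%, against 19.3% of all genes), and in 40 they lay below (21.2%, against 22.8%). The median log2 fold change of the carriers was 0.05, beside 0.01 for all genes. Summed over all 192 genes, carrier RNA was at 13607, 13922, 13987 and 13611 CPM in control replicates 2, 5, 6 and 7 and at 13886, 13491, 13238 and 13742 CPM in MAARS gapmeR replicates 9, 11, 13 and 15. The groups overlapped in this sum. Of the 98 carriers not called, 17 had an unadjusted p under 0.05 from edgeR. A further 3 genes, Slc13a2, Slc16a11 and Slc26a1, did not pass the filter and were not tested. Of those tested, 12 lay below the filter's level in some library, and 1, Slc27a3, reached it in no control library. The filter asked for that level in 4 libraries. Slc15a2 and Slc14a1, like Slc27a3, reached it in all 4 MAARS gapmeR libraries but not in all 4 controls. Without the MAARS gapmeR libraries, where they were higher, these genes would not have been tested.

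**Figure D1:**
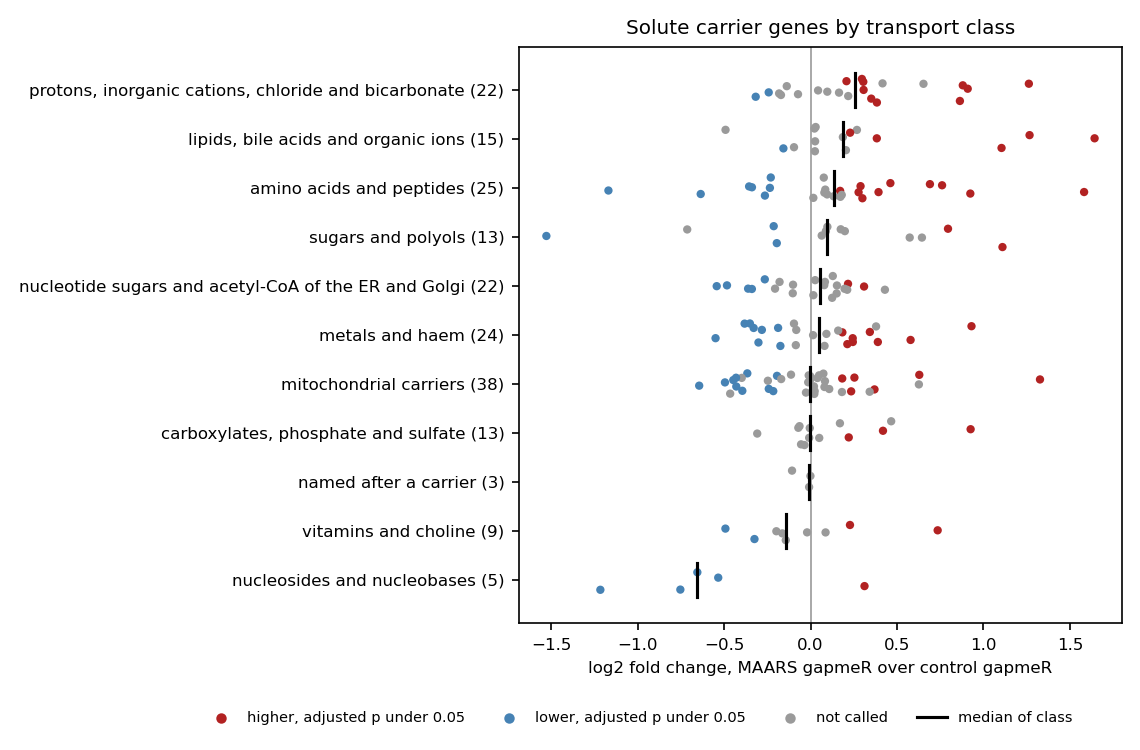
Each point is 1 of the 189 carriers tested, placed by its log2 fold change after MAARS gapmeR on the x axis and by transport class on the y axis (number tested in parentheses, points spread vertically for legibility), with black bars at class medians. Red points rose and blue points fell at an adjusted p under 0.05 from edgeR, and most classes hold both, while the class medians run from -0.65 for nucleoside carriers to 0.26 for carriers of protons and inorganic ions.

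The genes were sorted by what they carry into 11 groups covering 43 Slc families. The counts by class and family below stand beside all genes tested, of which 21.3% rose and 24.0% fell. In the sections that follow, library values are TMM-normalized CPM, given for control replicates 2, 5, 6 and 7 and then for MAARS gapmeR replicates 9, 11, 13 and 15. Coordinates are those of GRCm38 (mm10).

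Amino acid and peptide carriers included the carrier with the highest level per length. Of 25 genes, 10 rose and 7 fell (11 and 5 with upper-quartile factors), where 21.3% of all genes rose and 24.0% fell. Slc3a2, on chromosome 19 from 8706882 to 8723369, encodes the heavy chain that several Slc7 light chains need to reach the cell surface. It was that carrier, at 249 CPM per kilobase of exon over the 8 libraries. Its level was 1091, 1069.7, 1299 and 1406 CPM with control gapmeR and 507, 554, 526 and 577 CPM with MAARS gapmeR. Every MAARS gapmeR library was thus far below every control library, and the spread was wider among the controls. The log2 fold change was -1.17 (SE 0.0871, FDR = 5.27e-06), a decrease by 55.5%.

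The light chains that pair with Slc3a2 went both ways. Slc7a5, the main importer of large neutral amino acids such as leucine, rose from 35.8 ± 4.30 to 47.1 ± 5.07 CPM (SD, n = 4 each), which is a log2 fold change of 0.39. Slc7a7, which exchanges cationic for neutral amino acids, fell from 61.5 ± 8.32 to 48.6 ± 1.23 CPM (SD, n = 4 each), which is a log2 fold change of -0.34. Slc7a8, another neutral amino acid exchanger, fell by 0.23 on the log2 scale with overlapping groups, and its FDR reached 0.0998 among the alternatives, since upper-quartile factors, or leaving out MAARS gapmeR replicate 9 or 13 or control replicate 2, 6 or 7, each ended the call. Slc7a6 was at 14.4 ± 0.975 and 16.3 ± 2.33 CPM (SD, n = 4 each; FDR = 0.175). The arginine carriers Slc7a1 and Slc7a2, which work without Slc3a2, were not called either (log2 fold changes 0.10 and 0.17), while the scarce Slc7a4 rose by 0.92, with 13.3% of its exon sequence opposite another gene.

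Slc43a2, a facilitative carrier of leucine, phenylalanine and methionine, changed the other way. It lies on chromosome 11 from 75531694 to 75577575 and was at 814, 978, 867 and 770.0 CPM with control gapmeR and at 1556, 1265, 1313 and 1399 CPM with MAARS gapmeR. The lowest MAARS gapmeR library stood well above the highest control, and the log2 fold change was 0.69 (SE 0.083, FDR = 6.39e-05). Slc1a5, the exchanger that brings in glutamine, rose from 23.2, 21.4, 17.6 and 18.1 CPM to 33.2, 36.6, 32.6 and 33.7 CPM, a log2 fold change of 0.76 (SE 0.0878, FDR = 4.84e-05). The MAARS gapmeR libraries were close together and apart from all controls. Slc38a2, a sodium-coupled importer of glutamine and other small neutral amino acids, rose by 0.46 on the log2 scale, Slc38a6 by 0.30 and Slc38a10 by 0.17. The taurine carrier Slc6a6, with 121 CPM per kilobase of exon, rose from 928 ± 44.3 to 1125 ± 77.0 CPM (SD, n = 4 each; log2 fold change 0.28, SE 0.0589, FDR = 0.00275), whereas the creatine carrier Slc6a8 fell from 343 ± 23.9 to 285 ± 19.8 CPM (SD, n = 4 each), which is a log2 fold change of -0.26.

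The 3 Slc15 genes, proton-coupled carriers of small peptides, moved in both directions. Slc15a3, an endolysosomal peptide and histidine carrier on chromosome 19 from 10839727 to 10859362, was at 682, 658, 719 and 708 CPM with control gapmeR and at 414, 452, 445 and 471 CPM with MAARS gapmeR. Its groups were far apart beside their spread (log2 fold change -0.64, SE 0.0517, FDR = 6.49e-06), with 28.1% of its exon sequence opposite another gene. Slc15a4, also endolysosomal, went down from 75.9 ± 2.43 to 59.3 ± 3.60 CPM (SD, n = 4 each), which is a log2 fold change of -0.36. Slc15a2, the high-affinity peptide carrier of the plasma membrane, rose from 0.358, 0.764, 0.703 and 0.442 CPM to 2.41, 1.31, 1.52 and 1.6 CPM (log2 fold change 1.58, SE 0.303), at a level where each library held few reads. Slc15a2 passed the filter on low counts only through the MAARS gapmeR group, where it was higher, so its values are given as a description. It is among the 10 amino acid and peptide carriers counted above as rising. At the lysosome, Slc36a1, which exports small neutral amino acids, rose by 0.29 on the log2 scale. Slc38a9, the lysosomal arginine sensor of the mTORC1 pathway, fell by 0.24, with overlapping groups and a call that ended with upper-quartile factors and without MAARS gapmeR replicate 11 or 15 (FDR up to 0.0628).

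**Figure D2:**
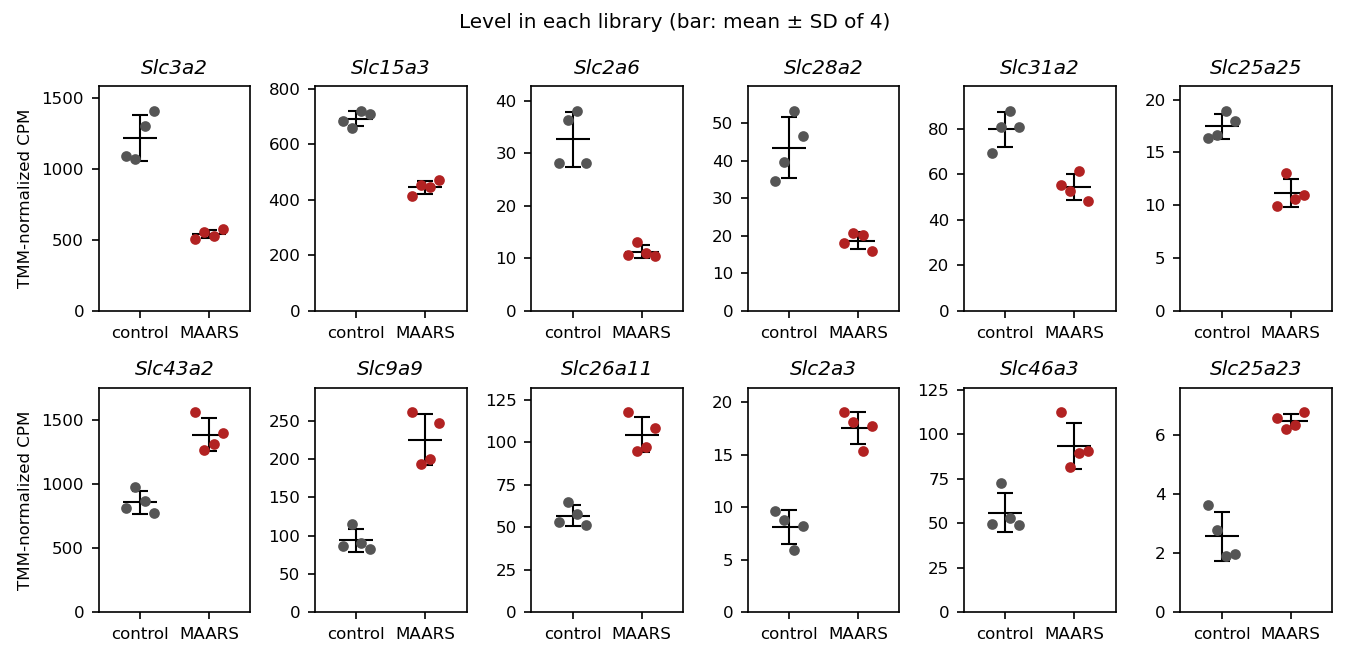
Level of 12 carriers in each of the 8 libraries (y axis, TMM-normalized CPM from 0; x axis, gapmeR group), with the mean and SD of 4 libraries as black bars. The upper row shows carriers that fell, such as Slc3a2 from 1217 to 541 CPM on average, and the lower row carriers that rose, such as Slc9a9 from 93.9 to 225 CPM, and in each of the 12 the groups do not overlap.

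Of the 5 carriers of nucleosides and nucleobases, 4 fell and 1 rose, where 24.0% of all genes fell and 21.3% rose. Slc28a2, the sodium-driven importer of purine nucleosides and uridine, lies on chromosome 2 from 122426477 to 122461137. It was at 34.5, 39.6, 53.3 and 46.7 CPM with control gapmeR and at 18.0, 20.8, 20.2 and 15.9 CPM with MAARS gapmeR, a log2 fold change of -1.22 (SE 0.129, FDR = 2.68e-05). The controls varied more than the MAARS gapmeR libraries, and all lay above them. Slc29a3, the equilibrative nucleoside carrier of lysosomes, was at 213, 225, 255 and 227 CPM with control gapmeR and at 171, 156, 159.5 and 148 CPM with MAARS gapmeR (log2 fold change -0.53, SE 0.0624, FDR = 5.28e-05). Slc29a1, the ubiquitous equilibrative carrier of the plasma membrane, moved in the opposite direction, from 65.1, 65.0, 61.7 and 59.6 CPM to 78.4, 79.2, 78.4 and 76.1 CPM (log2 fold change 0.31, SE 0.045, FDR = 0.000224). The nucleobase carrier Slc43a3 fell from 35.1 ± 2.86 to 20.8 ± 3.80 CPM (SD, n = 4 each), which is a log2 fold change of -0.75. Slc29a2 was near 2 CPM and fell by 0.65 on the log2 scale, a call that ended without MAARS gapmeR replicate 15 or control replicate 2 (FDR up to 0.0752). Summed over the 5 genes, the level was 352 to 407 CPM in the control libraries and 261 to 285 CPM in the MAARS gapmeR libraries.

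Among 24 carriers of metals and haem, 8 rose and 8 fell, or 10 and 6 with upper-quartile factors. The zinc carriers come in 2 families, of which Slc30 moves zinc out of the cytosol and Slc39 into it. All 6 Slc30 genes were called, 4 of them lower and 2 higher, where 45.4% of all genes tested were called. Slc30a1, the zinc exporter of the plasma membrane, was at 103, 110.4, 128 and 125 CPM with control gapmeR and at 82.6, 86.7, 88.3 and 100.2 CPM with MAARS gapmeR, a log2 fold change of -0.38. All MAARS gapmeR libraries were below all controls, by a narrow gap. Slc30a7, which loads zinc into the early secretory pathway, fell by 0.33 (SE 0.0655, FDR = 0.00186), with 16% of its exon sequence opposite another gene. Slc30a6 and Slc30a9 fell by 0.35 and 0.19, while Slc30a4 rose by 0.34 and Slc30a5 by 0.18. The call of Slc30a9 ended with upper-quartile factors (FDR = 0.0626) and that of Slc30a5 without control replicate 6 (FDR = 0.051).

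Of the 12 Slc39 genes, 5 rose, 2 fell and 5 were not called. Slc39a14, which imports zinc, manganese and iron not bound to transferrin, was at 10.2, 9.63, 12.3 and 11.5 CPM with control gapmeR and at 14.2, 16.6, 16.2 and 18.2 CPM with MAARS gapmeR (log2 fold change 0.58, SE 0.102, FDR = 0.000849). Its closest paralog Slc39a8 rose from 24.1 ± 1.69 to 31.6 ± 2.47 CPM (SD, n = 4 each), which is a log2 fold change of 0.39. Slc39a11, Slc39a12 and Slc39a13 rose by 0.24, 0.93 and 0.21 on the log2 scale, Slc39a12 from only 1.46 ± 0.610 CPM (SD, n = 4). The call of Slc39a13 ended with no filter on low counts (FDR = 0.0584). Slc39a10, a zinc importer of the plasma membrane, fell by 0.30, and Slc39a7, which releases zinc from the endoplasmic reticulum, by 0.28, the latter with 80.7% of its exon sequence also assigned to another gene of that strand. Slc39a1, with 77.8 CPM per kilobase of exon the highest of this family, was at 189 ± 15.7 and 179 ± 5.41 CPM (SD, n = 4 each) and was not called (FDR = 0.257), nor were Slc39a3, Slc39a5, Slc39a6 and Slc39a9.

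Slc48a1 passes haem from the phagolysosome into the cytosol, a step macrophages use when they digest red cells. With 149 CPM per kilobase of exon it was among the carriers of highest level, and it was at 395, 374, 358 and 370.1 CPM with control gapmeR and at 442, 448, 431 and 451 CPM with MAARS gapmeR. The change was small but beyond the spread within groups (log2 fold change 0.24, SE 0.0444, FDR = 0.00106). The copper carriers differed. Slc31a2, found on endosomes and lysosomes, was at 69.3, 80.9, 87.9 and 81.0 CPM with control gapmeR and at 55.4, 52.9, 61.5 and 48.2 CPM with MAARS gapmeR (log2 fold change -0.55, SE 0.0836, FDR = 0.000321). Slc31a1, the copper importer of the plasma membrane, was at 116 ± 7.01 and 122 ± 6.62 CPM (SD, n = 4 each; FDR = 0.261).

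**Figure D3:**
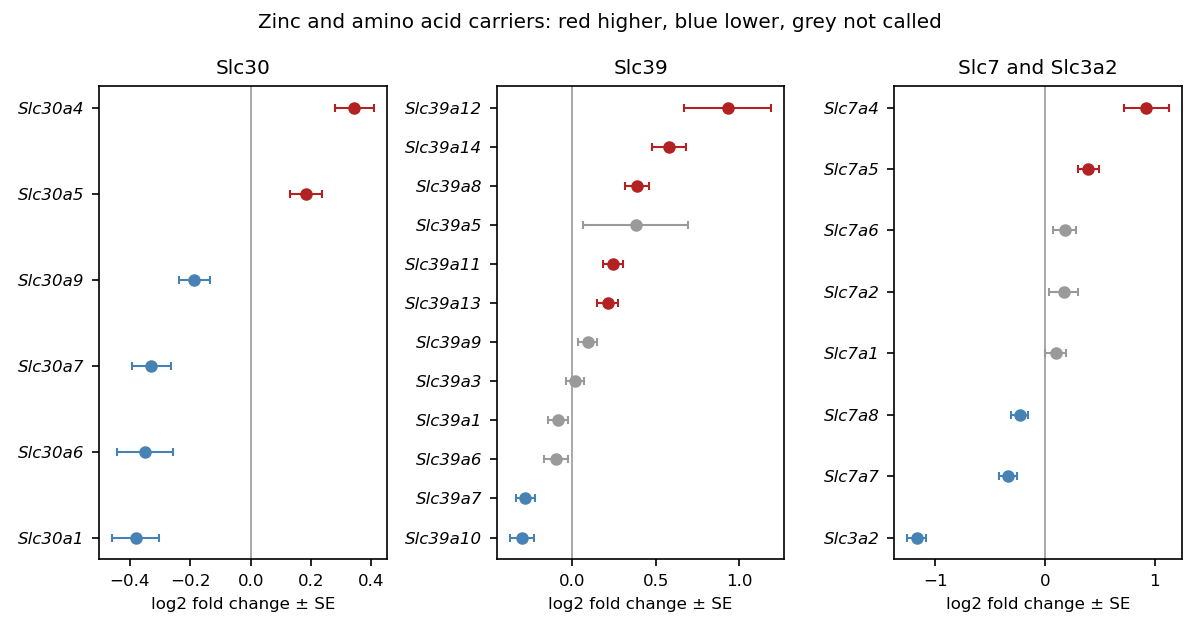
Log2 fold change after MAARS gapmeR with its SE (x axis) for the members of 3 groups of carriers (y axis, genes ordered by change): zinc carriers Slc30 and Slc39, and the Slc7 amino acid carriers with their heavy chain Slc3a2. Red marks genes that rose, blue genes that fell and grey genes not called. Slc30 and Slc39 were mixed, and Slc3a2, at -1.17, lay apart from the Slc7 genes.

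Carriers of protons, inorganic cations, chloride and bicarbonate had 10 members that rose and 2 that fell of 22 tested (12 and 2 with upper-quartile factors). Of all 13051 genes, 21.3% rose and 24.0% fell, or 3622 and 2379 genes with upper-quartile factors. The summed level of these carriers was 870.0 to 949 CPM in the control libraries and 1070 to 1212 CPM in the MAARS gapmeR libraries, without overlap. A large part of this difference came from Slc9a9, whose library values follow. Slc9a9, a sodium/proton exchanger of late recycling endosomes, lies on chromosome 9 from 94669909 to 95230445. It was at 86.8, 116, 90.2 and 82.9 CPM with control gapmeR and at 261, 194, 199 and 247 CPM with MAARS gapmeR. Each MAARS gapmeR library was above the highest control by a wide gap (log2 fold change 1.26, SE 0.119, FDR = 1.29e-05). The Golgi exchanger Slc9a7 rose by 0.38 on the log2 scale, a call that ended without control replicate 7 (FDR = 0.0546). The scarce Slc9a5 rose by 0.91, although control replicate 2 overlapped the MAARS gapmeR group. Slc9a8, another Golgi exchanger, was at 43.6 ± 1.63 and 41.4 ± 2.42 CPM (SD, n = 4 each; FDR = 0.312).

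Slc26a11, a sulfate and chloride carrier found on lysosomes, was at 52.9, 65.1, 57.7 and 51.4 CPM with control gapmeR and at 118, 95.1, 97.3 and 108 CPM with MAARS gapmeR. The groups did not overlap (log2 fold change 0.88, SE 0.0856, FDR = 1.54e-05). The cation-chloride cotransporters of the Slc12 family set cell volume and chloride. Slc12a2, which brings sodium, potassium and chloride in, rose from 15.1 ± 2.76 to 27.5 ± 3.51 CPM (SD, n = 4 each), which is a log2 fold change of 0.86. The potassium and chloride exporters Slc12a7 and Slc12a4 fell by 0.32 (SE 0.0674, FDR = 0.00279) and by 0.24 (SE 0.0583, FDR = 0.00579). The orphan Slc12a9 was not called (FDR = 0.339). The bicarbonate importer Slc4a7 rose by 0.31. The sodium/calcium exchanger Slc8a1 rose by 0.35, a call that ended without MAARS gapmeR replicate 9 or control replicate 5 (FDR up to 0.0703).

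Of the 13 carriers of sugars and polyols, 2 rose, 3 fell and 8 were not called. With upper-quartile factors 4 rose and 2 fell. Slc2a6, a glucose carrier family member of lysosomes on chromosome 2 from 27021363 to 27027998, had the largest decrease of all carriers tested. It was at 28.2, 36.4, 38.1 and 28.2 CPM with control gapmeR and at 10.7, 13.1, 10.98 and 10.5 CPM with MAARS gapmeR. The lowest control was above the highest MAARS gapmeR library by more than the range of either group (log2 fold change -1.53, SE 0.117, FDR = 5.27e-06). Slc2a3, a high-affinity glucose importer, rose from 9.63, 8.76, 5.90 and 8.20 CPM to 19.0, 18.1, 15.4 and 17.7 CPM, a log2 fold change of 1.11 (SE 0.131, FDR = 5.54e-05). Slc2a8 and Slc2a9 were not called, with log2 fold changes of 0.10 and 0.06. In the Slc37 family of sugar phosphate exchangers, Slc37a3 rose from 22.7, 29.5, 20.3 and 19.6 CPM to 42.3, 38.2, 38.9 and 40.4 CPM (log2 fold change 0.79, SE 0.11, FDR = 0.000167). The more abundant Slc37a2, a glucose-6-phosphate and phosphate exchanger, fell from 479 ± 9.15 to 413 ± 28.5 CPM (SD, n = 4 each; log2 fold change -0.21, SE 0.0535, FDR = 0.00724).

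The mitochondrial carrier family was the largest, with 38 members, of which 6 rose, 10 fell and 22 were not called. With upper-quartile factors 9 rose and 9 fell. Its most abundant members include the inner-membrane phosphate carrier Slc25a3, at 395 ± 15.7 and 392 ± 11.6 CPM (SD, n = 4 each; FDR = 0.864), and the exchangers of ADP for ATP. Of these, Slc25a5 was at 319, 310.5, 314 and 314 CPM with control gapmeR and at 263, 270.2, 275 and 275 CPM with MAARS gapmeR, a log2 fold change of -0.22 (SE 0.0386, FDR = 0.000932). Its libraries were tightly grouped on either side. Slc25a4, its near relative, was at 174 ± 7.49 and 184 ± 4.0 CPM (SD, n = 4 each; FDR = 0.142). Reads of close relatives and of their pseudogenes could have been split by the counting, whose treatment of reads that map to several places is not given in the sources used here. The share of counts from the mitochondrial genome was higher in every MAARS gapmeR library, as given above, and its part in the changes of these nuclear genes was not tested.

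The 3 calcium-dependent exchangers of ATP-magnesium for phosphate took 3 courses. Slc25a23 was at 3.64, 2.80, 1.89 and 1.96 CPM with control gapmeR and at 6.57, 6.21, 6.34 and 6.76 CPM with MAARS gapmeR (log2 fold change 1.33, SE 0.184, FDR = 0.000173). Slc25a25 fell from 17.5 ± 1.20 to 11.2 ± 1.33 CPM (SD, n = 4 each), which is a log2 fold change of -0.64. Slc25a24, the most abundant of them, was at 98.3 ± 5.07 and 98.1 ± 4.64 CPM (SD, n = 4 each; FDR = 0.979). The groups did not overlap in Slc25a23 and Slc25a25, and they overlapped in Slc25a24.

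Slc25a36, a carrier of pyrimidine nucleotides, rose from 41.2, 49.9, 49.0 and 42.4 CPM to 74.1, 64.8, 72.6 and 70.8 CPM (log2 fold change 0.63, SE 0.0715, FDR = 4.34e-05). Several carriers of amino acids in mitochondria were lower. Slc25a12, an exchanger of aspartate for glutamate, fell from 60.3 ± 1.45 to 46.8 ± 2.29 CPM (SD, n = 4 each; log2 fold change -0.37, SE 0.0495, FDR = 0.000144), while its paralog Slc25a13 was at 33.1 ± 2.00 and 33.6 ± 3.70 CPM (SD, n = 4 each; FDR = 0.828). Slc25a44, a carrier of branched-chain amino acids, fell from 72.3 ± 3.70 to 53.6 ± 3.89 CPM (SD, n = 4 each; log2 fold change -0.43, SE 0.0611, FDR = 0.000199). The glutamate carrier Slc25a22 fell by 0.45, the ornithine carrier Slc25a15 by 0.24 and Slc25a38, which supplies glycine for haem synthesis, by 0.50. Also lower was Slc25a30, by 0.43. Of the iron carriers of the inner membrane, Slc25a37 rose by 0.37 and Slc25a28 was not called (FDR = 0.314).

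Carriers that supply the endoplasmic reticulum and Golgi were mostly not called, 15 of 22, with 5 lower and 2 higher (5 and 5 with upper-quartile factors). Slc35b1, which exchanges ATP for ADP across the membrane of the endoplasmic reticulum, was at 47.4, 45.8, 48.0 and 47.2 CPM with control gapmeR and at 31.7, 30.3, 31.9 and 35.4 CPM with MAARS gapmeR. The separation was wide beside the spread of either group (log2 fold change -0.54, SE 0.0564, FDR = 2.31e-05). Slc35d2, a carrier of UDP-N-acetylglucosamine, fell from 19.0 ± 1.02 to 13.6 ± 0.955 CPM (SD, n = 4 each; log2 fold change -0.48, SE 0.0756, FDR = 0.000384). The GDP-fucose carrier Slc35c1 fell by 0.26, and Slc35c2 and the orphan Slc35e4 by 0.36 and 0.34. Slc35b3, which carries the sulfate donor PAPS, rose from 15.3 ± 0.747 to 19.0 ± 1.38 CPM (SD, n = 4 each; log2 fold change 0.31, SE 0.074, FDR = 0.00558). Slc33a1, the acetyl-CoA carrier of the endoplasmic reticulum, rose by 0.22 (SE 0.0523, FDR = 0.00584), with 32% of its exon sequence opposite another gene. The carriers of CMP-sialic acid and UDP-galactose, Slc35a1 and Slc35a2, had log2 fold changes of 0.08 and -0.18 and were not called.

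Among the 15 carriers of lipids, bile acids and organic ions, 5 rose and 1 fell (6 and 0 with upper-quartile factors), and the largest changes were in scarce transcripts. The 5 include Slc27a3 and Slc14a1, which were tested only through the group where they were higher, so this count rests in part on them. Slc27a3, a fatty acid carrier family member with acyl-CoA synthetase activity, passed the filter on low counts only through the MAARS gapmeR group, where it was higher, so its values are given as a description. It was at 0.410, 0.102, 0.487 and 0.196 CPM with control gapmeR and at 0.946, 0.796, 1.06 and 0.953 CPM with MAARS gapmeR (log2 fold change 1.64, SE 0.372). At these levels the SE is several times that of the abundant carriers. Slc18b1, a vesicular polyamine carrier, rose from 1.43, 1.48, 1.73 and 1.42 CPM to 3.83, 2.79, 3.12 and 3.34 CPM (log2 fold change 1.10, SE 0.168, FDR = 0.000323). The urea carrier Slc14a1 rose by 1.27 (SE 0.366) from 0.396 ± 0.190 to 0.961 ± 0.284 CPM (SD, n = 4 each), with overlapping groups. Like Slc27a3, Slc14a1 passed the filter on low counts only through the MAARS gapmeR group, so its values are given as a description. The carnitine importer Slc22a5 rose by 0.23 and its neighbour in the family, Slc22a4, was not called (FDR = 0.201).

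Of the 13 carriers of carboxylates, phosphate and sulfate that were tested, 3 rose and none fell. Slc17a5, which exports sialic acid from lysosomes, rose from 89.8, 94.9, 85.7 and 75.7 CPM to 124, 114, 111 and 114 CPM (log2 fold change 0.42, SE 0.0667, FDR = 0.000435), with no overlap. Slc13a3, an importer of dicarboxylates such as succinate, rose from 1.53 ± 0.087 to 2.91 ± 0.488 CPM (SD, n = 4 each; log2 fold change 0.93, SE 0.178, FDR = 0.00146). The monocarboxylate carrier Slc16a7 rose by 0.22, a call that ended without MAARS gapmeR replicate 9 or control replicate 7 (FDR up to 0.0654). The other 6 Slc16 genes tested were not called, nor were the phosphate importers Slc20a1 and Slc20a2, at 66.1 ± 6.07 and 63.6 ± 8.88 CPM and at 20.1 ± 1.84 and 19.2 ± 1.55 CPM (SD, n = 4 each).

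Among 9 carriers of vitamins and choline, 2 rose and 2 fell. Slc46a3, a lysosomal membrane carrier, was at 49.9, 72.5, 53.1 and 48.8 CPM with control gapmeR and at 112, 81.5, 89.2 and 90.4 CPM with MAARS gapmeR (log2 fold change 0.74, SE 0.128, FDR = 0.000798). Control replicate 5 and MAARS gapmeR replicate 11 came near each other without overlap. The ascorbate importer Slc23a2 fell from 175 ± 7.90 to 139.9 ± 10.4 CPM (SD, n = 4 each; log2 fold change -0.32, SE 0.0586, FDR = 0.001). Slc5a6, which imports biotin and pantothenate, fell by 0.49 (SE 0.128, FDR = 0.00885), and the choline carrier Slc44a1 rose by 0.23 (SE 0.0486, FDR = 0.00282). The remaining 3 genes, Slc9a3r1, Slc4a1ap and Slc7a6os, are named after a carrier that they bind or adjoin and carry nothing themselves. None was called, and Slc9a3r1, with 128 CPM per kilobase of exon, was at 248 ± 7.13 and 246 ± 10.2 CPM (SD, n = 4 each; FDR = 0.892).

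**Figure D4:**
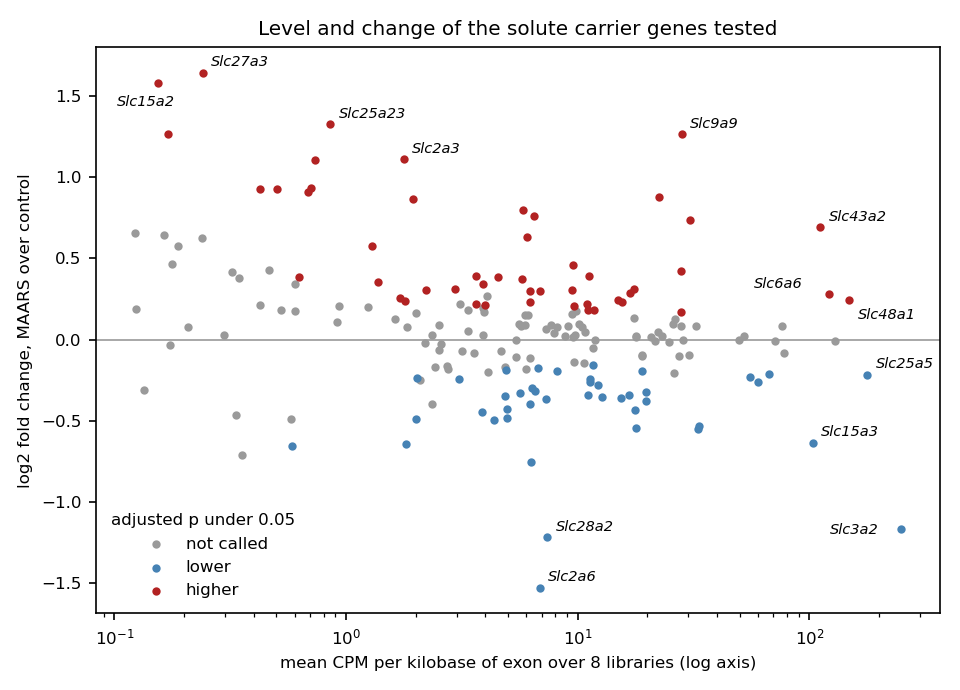
Log2 fold change after MAARS gapmeR (y axis) against the mean level over the 8 libraries in CPM per kilobase of exon (x axis, log scale) for the 189 carriers tested, with red for carriers that rose, blue for those that fell and grey for those not called. Changes above 1.3 on the log2 scale lie at the left, among scarce transcripts such as Slc27a3 and Slc15a2, while Slc3a2, at 249 CPM per kilobase, is the lowest point at the right.

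The precision of a test depends on the level of the gene and on the spread between libraries. The median level was 34.5 CPM over the 91 called carriers and 25.4 CPM over the 98 not called, and 10 of the called against 24 of the others were under 5 CPM. Of the carriers that rose, 9 of 49 were under 5 CPM, and of those that fell, 1 of 42. Exons of 14 carriers overlap a gene on the opposite strand over more than 10% of their bases, and those of 4 a gene on the same strand. Whether the authors' counting used the strand of the reads is not given in the sources used here, so reads from such pairs of genes may not have been told apart.

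The start regions of the carriers were searched for short motifs that transcription factors of macrophages are known to bind, to describe what these regions share. Promoter windows of 250 bases before to 50 after the annotated start (RefSeq, GRCm38.p6) were at hand for 148 of the 192 genes, in 198 windows, and for 32851 windows of all genes. Both strands were searched for the CLEAR element TCACGTGA of lysosomal genes, the amino acid response element TGATGNAA, the metal response element TGCNCNC and the interferon-stimulated response element, TTTCNN followed by TTTC. The CLEAR element was in 2.02% of the carrier windows (4 windows) and in 0.974% of all windows. All 4 sites are printed below, with the motif in capitals. Slc36a1, Slc37a3 and Slc25a36 rose and Slc35a5 was not called (log2 fold change 0.15), where 25.9% of the carriers tested rose. A link between the motif and the change was not tested.
Slc36a1: ggagccagcaTCACGTGAcagggcccgg
Slc37a3: gtccccgaggTCACGTGAgcgtccggaa
Slc25a36: ccctgggcgaTCACGTGAaagaggcgtg
Slc35a5: acctaaggccTCACGTGActcgactctc

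These sequences read 5′ to 3′ on the strand of the gene, and the motif begins 4, 14, 188 and 91 bases before the annotated start in the order printed. The windows are chr11:55204090-55204389 on the plus strand, and chr6:39377658-39377957, chr9:97110992-97111291 and chr16:45158624-45158923 on the minus strand.

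The amino acid response element was in 2.53% of the carrier windows and 3.97% of all windows, and the interferon element in 1.52% and 3.44%. Among the amino acid carriers the first of these was in the windows of Slc7a7, which fell, and Slc1a4, which was not called, and outside them in those of Slc9a9, which rose, and Slc50a1, which fell but was not called with upper-quartile factors (FDR = 0.0689). The interferon element was in those of Slc25a15 and Slc25a22, which fell, and Slc37a1, which was not called. The sites are printed because carriers with the same motif moved in different directions or were not called, and a motif on the opposite strand appears as its reverse complement. Slc7a7 held 1 more match, not printed.
Slc7a7: acctagaagcTGATGCAAcagcttcccc
Slc1a4: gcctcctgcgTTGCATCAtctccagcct
Slc9a9: gaatcttttaTGATGAAAccaccctctg
Slc50a1: gtggtctcgaTGATGCAAggggtgcgca
Slc25a15: ggagagcagaTTTCCGTTTCcttggccagc
Slc25a22: agcccaaaatGAAAGAGAAAgtcctccccc
Slc37a1: acagggccggGAAAGTGAAAgggcggccgc

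The windows of Slc9a9 and Slc37a1 are chr9:94669642-94669941 and chr17:31295974-31296273 on the plus strand. Those on the minus strand are chr14:54417895-54418194 for Slc7a7, chr11:20332664-20332963 for Slc1a4, chr3:89270521-89270820 for Slc50a1, chr8:22398572-22398871 for Slc25a15 and chr7:141435326-141435625 for Slc25a22.

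The metal response element is so short that it was in 51.0% of all windows and 57.1% of the carrier windows. It is shown for Slc30a1, whose zinc-dependent expression is a textbook case, with matches starting at base -43 and base 31 from the start in the window chr1:191906531-191906830 on the plus strand.
Slc30a1: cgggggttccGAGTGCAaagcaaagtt
Slc30a1: cctccgggccGAGCGCAgtcgccgcgg

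No printed match overlapped a match of another of the 4 motifs. A match describes letters in a window and says nothing of binding in these cells.

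Not all solute carriers have Slc symbols in this annotation. Of 51 carriers listed under older names, 42 were tested, of which 8 rose (19.0%) and 10 fell (23.8%), beside 21.3% and 24.0% of all genes. The 6 with the smallest p were Slco2b1, an organic anion carrier, with a log2 fold change of 1.81, Letm1 with -0.40, Cln3 with -0.41, Mfsd12 with -0.36, Sfxn3 with 0.38 and Pqlc3 with -0.27.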

How the data were processed

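RNA-Seq of ribodepleted total RNA was used for 4 control gapmeR and 4 MAARS gapmeR libraries of BMDMs. The authors trimmed reads with Trimmomatic 0.36, aligned them with STAR 2.5.2b to GRCm38 (mm10) with Ensembl transcripts, and obtained gene counts from featureCounts in Subread 1.5.2 (versions from the submitters' processing notes). The deposited table holds raw, unnormalized counts of 49315 genes. The strand setting is not given in the sources used here.

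From these counts, genes were filtered with filterByExpr (minimum count 10, minimum total count 15), scaled with TMM factors and tested with edgeR 4.0.16 (glmQLFit and glmQLFTest, R 4.3.3), adjusted by Benjamini-Hochberg over 13051 genes. Standard errors (SE) were obtained as the size of the log2 fold change over the root of its F statistic, and FDR denotes the adjusted p from edgeR. The procedure was also run on simulated counts with 200 changed genes. In these data 5919 genes were called, so that run does not speak to error rates here. DESeq2 1.42.0, limma-voom (limma 3.58.1), other scaling factors and filters, and each library left out in turn were tried as alternatives. Libraries of a group differed by 4.24 to 15.1 in chi-square per gene, so none was counted as a repeat of another. GENCODE M21 (GRCm38) gave positions and overlaps, and it held 99.5% of the file's genes.

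The carriers, their transport classes, the motifs and the gene lists were chosen with earlier results of these data known. The genes named are, for each class, the 2 with the smallest p in each direction without overlap between groups, the 10 called carriers of largest change, the 6 with the highest CPM per kilobase of exon and those nearest the count limit, with other called carriers given by level and change only and uncalled ones as family members. The precision of each value depends on the totals per library and on the spread between libraries. Some carriers are not reported here.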

Additional observations from a re-analysis of the deposited data

Results flagged for a closer look

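Within each group of 4 libraries, the highest or lowest value of a called carrier was compared with the other 3 by Dixon's ratio at its 95% critical value. Of 182 groups examined, 7 had an outlying library, and chance alone flags about 1 group in 20. Control replicate 5 was high for Slc15a4 (79.5 CPM, others 74.4 to 74.9) and Slc36a1 (90.6 CPM, others 82.3 to 83.6). MAARS gapmeR replicate 9 was high for Slc16a7 (51.5 CPM, others 44.6 to 45.5), Slc38a9 (35.6 CPM, others 29.0 to 30.0) and Slc9a7 (24.6 CPM, others 17.6 to 18.3). Control replicate 6 was high for Slc25a26 (8.22 CPM, others 7.22 to 7.34) and control replicate 2 for Slc9a5 (4.04 CPM, others 1.92 to 2.06). Slc15a4, Slc36a1 and Slc9a5 were called under every alternative that gave a value. Without MAARS gapmeR replicate 9, Slc16a7 was no longer called, while Slc38a9 and Slc9a7 were.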

How the results depend on the processing

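Of the 91 called carriers, 75 were called under each of the 16 alternatives that gave a value (41 higher, 34 lower), 16 lost the call in at least 1, and none changed direction in any. With DESeq2 91 carriers were called, and 88 of the 91 were among them. Leaving out 1 library left between 85 and 91 called. The 39 named carriers chosen for their p, change or level and called kept their calls under each alternative that gave a value. Many were chosen for a small p in these same libraries, so the kept calls follow in part from the choice. The 39 also include Slc27a3, Slc15a2 and Slc14a1, which passed the filter only through the MAARS gapmeR group. For 3 others, Slc15a3, Slc30a7 and Slc33a1, there was no value with genes of under 10% exonic overlap only, so that their overlap with other genes was not tested. A fold change of at least 1.5 left 25 (18 higher, 7 lower), and a log2 fold change of 1.5 or more in size left 3 (2 higher, 1 lower), which follows from the stricter limit. The log2 fold change of Slc9a3r1, -0.01 and not called, was 0.000296 with genes of under 10% exonic overlap only and 0.055 with upper-quartile factors, and it ran from -0.034 without MAARS gapmeR replicate 15 to 0.011 without MAARS gapmeR replicate 13, still not called. Calls were lost most often for Slc10a3 (11 of 15 alternatives), Slc41a2 (9) and Slc25a26 (8), and the cause was not tested. No paired analysis was possible because the groups share no replicate numbers. Carriers under 1 CPM, 2 of the 91 called and 10 of the 98 not called, rest on few reads per library, and smaller changes in them were not detectable at this depth.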
